A study of Mus musculus with 12 samples.

Results

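The genes described here are 10 chromatin enzymes and their partners in mouse prostate, chosen by name out of the 24421 genes measured: the Polycomb repressive complex 2 (PRC2) genes Ezh1, Ezh2, Eed and Suz12, the histone deacetylase genes Hdac1, Hdac2, Hdac3, Hdac6 and Hdac8, and the NAD-dependent deacetylase gene Sirt1. Their RNA was measured as FPKM, fragments scaled by transcript length and library total, in 12 RNA sequencing libraries. All 10 were above the minimum of 0.5 FPKM used for testing. Eed and Suz12 are subunits without catalytic activity of their own, so the set holds enzymes together with essential partners of an enzyme.

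The libraries came from 2 kinds of mice. TRAMP mice, labelled C57BL/6-Tg(TRAMP)8247Ng/J, carry the SV40 T antigens under a rat probasin promoter, which is active in the secretory epithelium of the prostate, and they develop prostate tumors. Wild type mice were C57BL/6. The diet was AIN93M, given plain (control diet) or with PEITC, phenethyl isothiocyanate from cruciferous plants, at 0.05% by weight. There were 7 groups: a TRAMP tumor at 24 weeks of age on control diet (1 library, lobe of origin unknown), TRAMP on PEITC at 24 weeks (2 libraries) and at 16 weeks (2), TRAMP on control diet at 24 weeks (2) and at 16 weeks (2), and wild type on control diet at 24 weeks (2) and at 16 weeks (1). Apart from the tumor, the tissue was ventral and dorsolateral prostate. How many animals made a library is not stated, so p-values measure the spread between these libraries, which may be technical.

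PRC2 places methyl groups on lysine 27 of histone H3, a mark of silenced genes. Ezh2 and Ezh1 are its alternative catalytic subunits, Eed binds the methylated histone and stimulates the enzyme, and Suz12 holds the complex together. Ezh2 is mostly found in dividing cells, where its gene is a target of the RB-E2F pathway, and Ezh1 is also found in cells that no longer divide. Human EZH2 is known for high expression in metastatic prostate cancer. Histone deacetylases remove acetyl groups: Hdac1 and Hdac2 act in the Sin3, NuRD and CoREST complexes, Hdac3 in the NCoR complex, Hdac8 on its own, and Hdac6 mainly in the cytoplasm on tubulin. Sirt1 deacetylates histones and transcription factors in a reaction that consumes NAD. Isothiocyanates have been reported as inhibitors of histone deacetylases. Such inhibition would concern enzyme activity, and the values here are RNA levels.

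The libraries were alike in the number of genes with values above 0, which was 17113 to 18505. Reads per library are unknown. The relative depth read from the smallest steps between values ran from 0.635 in the wild type library of 16 weeks to 1 in the deepest TRAMP library. It was 0.635 to 0.694 in the 3 wild type libraries and 0.895 to 1 in the 4 TRAMP control libraries. Relative depth was 0.698 in the tumor library, against 0.949 and 1 in the TRAMP control libraries of 24 weeks. It was 0.666 in TRAMP PEITC library 0 of 16 weeks and 0.854 to 0.941 in the other PEITC libraries. Depth thus differed along with genotype and between the tumor and TRAMP prostate, and its part in the differences was not tested. The prostate secretory markers, which define the tissue, summed to 3314 to 4675 FPKM in TRAMP control libraries of 24 weeks and to 23086 to 24039 FPKM in wild type libraries of that age, so they were present in both. The wild type library of 16 weeks also held 8281 FPKM of 7 seminal vesicle transcripts, against 2.93 to 36.1 FPKM in the other 11 libraries. It is the only wild type library of its age, and the values of the 10 genes are given against the wild type libraries of 24 weeks as well. In TRAMP PEITC library 1 of 24 weeks, 7 neuroendocrine markers summed to 35.5 FPKM, against 1.36 to 8.06 FPKM elsewhere. The same library held 352 FPKM of 5 adipocyte markers, against 13.4 to 227 FPKM elsewhere. In TRAMP PEITC library 1 of 16 weeks, 8 smooth muscle markers summed to 762 FPKM, against 317 to 412 FPKM in the other TRAMP libraries, the tumor included.

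The comparison of TRAMP with wild type prostate on control diet shows how the transgenic tissue differs in these genes. At 24 weeks, 6 of the 10 genes rose in TRAMP prostate and none fell: Ezh2, Suz12, Hdac6, Eed, Hdac3 and Hdac2. Many genes differed in that tissue: 23% of all 13375 genes tested were called higher, 22% lower and 45% in either direction (limma, Benjamini-Hochberg adjusted p under 0.05). Higher calls were 51.1% of all calls, but 66.6% when the scaling left out the 50 most abundant genes and 40.2% under GC correction. The median difference of the 10 genes was 0.26 on the log2(FPKM + 1) scale, against -0.00074 for all genes tested. Ezh2 was the largest of the 10, and its rise ranked 476 of 13375, above 96.4% of all genes.

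**Figure D1:**
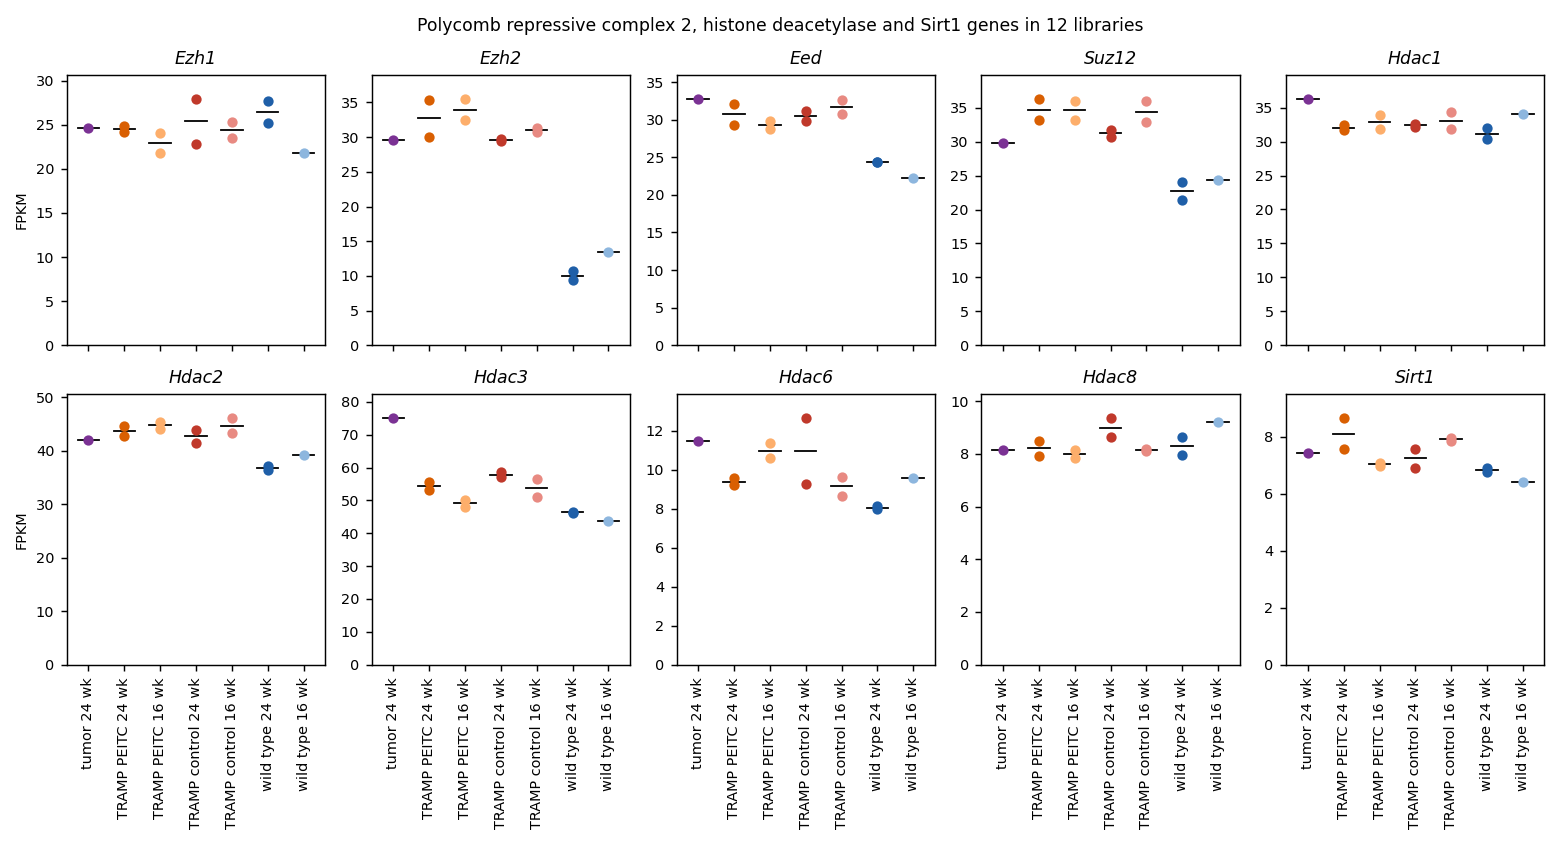
FPKM of each of the 10 genes in every library, 1 point per library, with a line at the group mean; groups run from the tumor and the TRAMP diets on the left to wild type on the right. Ezh2 lies between 29.4 and 35.5 FPKM in the 8 TRAMP prostate libraries and between 9.38 and 13.5 FPKM in the 3 wild type libraries, while Ezh1 and Hdac1 overlap between them.

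Ezh2 (chromosome 6, 47530139 to 47595341, minus strand, GRCm38) had 29.8 and 29.4 FPKM in TRAMP prostate of 24 weeks and 30.8 and 31.3 FPKM in TRAMP prostate of 16 weeks, against 10.7 and 9.38 FPKM in wild type prostate of 24 weeks and 13.5 FPKM in wild type prostate of 16 weeks. Every TRAMP library lay above every wild type library, by more than the distance between any replicates. The difference at 24 weeks was 1.47 on the log2(FPKM + 1) scale (SE 0.09, adjusted p = 2.43e-05), a ratio of 2.78 for FPKM + 1 and not for FPKM itself. At 16 weeks it was 1.15 (SE 0.11, adjusted p = 0.000376), and 1.54 when the wild type libraries of 24 weeks served as the control. Ezh2 was called in all 13 alternative analyses at 24 weeks and all 12 at 16 weeks.

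Its paralog Ezh1 (chromosome 11, 101191115 to 101226463, minus strand) had 27.9 and 22.8 FPKM in TRAMP prostate of 24 weeks and 25.3 and 23.5 FPKM in TRAMP prostate of 16 weeks, against 27.7 and 25.2 FPKM in wild type prostate of 24 weeks and 21.8 FPKM in wild type prostate of 16 weeks. The groups overlapped. The difference was -0.06 at 24 weeks (95% interval -0.29 to 0.17, adjusted p = 0.647) and 0.15 at 16 weeks (interval -0.13 to 0.44, adjusted p = 0.370). The Ezh2 to Ezh1 ratio, which compares the alternative catalytic subunits within a library, averaged 1.23 ± 0.115 in the 4 TRAMP control libraries of both ages (SD, range 1.07 to 1.33) and 0.458 ± 0.137 in the 3 wild type libraries (SD, range 0.372 to 0.616). Ezh2 RNA was thus the more abundant of the pair in each TRAMP library and the less abundant in each wild type library, on a scale that corrects for transcript length.

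The promoters of these paralogs and of Suz12 were read from RefSeq (GRCm38.p6) to show how they differ in sequence. Capitals mark E2F words (TTTCCCGC, TTTGGCGC, TTTCGCGC or TTTGCCGC) and CCAAT on either strand, so that ATTGG is CCAAT on the other strand. Both were chosen after the values of these genes were known. Shown are the minus strand at chr6:47595019-47595180 for Ezh2, the minus strand at chr11:101226452-101226613 for Ezh1, and the plus strand at chr11:79992856-79993105 for Suz12, 5′ to 3′.
Ezh2: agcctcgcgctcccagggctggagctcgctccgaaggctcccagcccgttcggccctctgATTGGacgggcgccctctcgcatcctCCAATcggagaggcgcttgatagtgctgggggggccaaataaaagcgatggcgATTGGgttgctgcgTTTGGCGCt
Ezh1: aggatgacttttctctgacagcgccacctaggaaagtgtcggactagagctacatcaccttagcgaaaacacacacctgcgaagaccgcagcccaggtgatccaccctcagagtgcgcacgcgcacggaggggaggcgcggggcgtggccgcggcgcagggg
Suz12: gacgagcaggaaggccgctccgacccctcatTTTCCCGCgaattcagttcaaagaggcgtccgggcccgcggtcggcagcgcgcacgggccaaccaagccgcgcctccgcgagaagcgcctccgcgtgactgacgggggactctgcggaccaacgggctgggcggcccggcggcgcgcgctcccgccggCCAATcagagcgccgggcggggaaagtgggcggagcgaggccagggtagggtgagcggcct
The window searched ran from 250 bases before the RefSeq start to 50 bases after it, each word was looked for separately, and overlapping matches counted for both. Ezh2 held an E2F word whose first base is at 4, counting the start base as 1, and 3 CCAAT words upstream of the start. Suz12 held an E2F word at -219 and a CCAAT word at -61, counting back from the start. Ezh1 held neither. Among the 8 of the 10 genes with a window, 2 held an E2F word and 5 held CCAAT, against 2.26% and 37.4% of 32851 mouse promoter windows. For comparison, 8 of 16 DNA replication genes with a window held an E2F word and 12 held CCAAT, while of 16 mitosis genes 1 held an E2F word and 14 held CCAAT. No E2F word was found in the windows of 13 PRC1 subunits, 20 corepressor subunits, 5 further deacetylases or 2 H3 lysine 27 demethylases. One was found in 1 of 7 PRC2 accessory subunits (Phf19), 1 of 6 further sirtuins (Sirt4) and 1 of 9 acetyltransferases (Kat2a). Of these, Phf19 was lower and Kat2a higher in TRAMP prostate of 24 weeks. A match describes the letters in the window and is not a measured binding site.

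Suz12 (chromosome 11, 79993106 to 80034123, plus strand), the PRC2 scaffold, had 31.7 and 30.7 FPKM in TRAMP prostate of 24 weeks and 32.8 and 35.9 FPKM in TRAMP prostate of 16 weeks, against 21.4 and 24.1 FPKM in wild type prostate of 24 weeks and 24.4 FPKM in wild type prostate of 16 weeks. The groups did not overlap. Its difference was 0.44 at 24 weeks (SE 0.08, adjusted p = 0.00355) and 0.48 at 16 weeks (SE 0.10, adjusted p = 0.00889). The call at 16 weeks was lost when only the groups compared were fitted (adjusted p = 0.0568).

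Eed (chromosome 7, 89954654 to 89980983, minus strand), the subunit that reads the methyl mark, had 31.2 and 29.8 FPKM in TRAMP prostate of 24 weeks and 32.6 and 30.8 FPKM in TRAMP prostate of 16 weeks, against 24.4 FPKM in each wild type library of 24 weeks and 22.2 FPKM in wild type prostate of 16 weeks. No TRAMP library reached down to the wild type values. The difference was 0.31 at 24 weeks (SE 0.06, adjusted p = 0.00526) and 0.50 at 16 weeks (SE 0.08, adjusted p = 0.00246), and it was called in every alternative at both ages. Part of an Eed exon lies opposite E230029C05Rik, which averaged 0.236 FPKM, and whether fragments were counted by strand is not stated in the sources used here. Exons of Ezh2, Suz12 and Sirt1 also overlap genes of the opposite strand (Gm26625, Gm26563 and Gm16145). Those genes are not among the symbols of the files, so the handling of their reads is uncertain. The 4 PRC2 genes together summed to 119.1 ± 4.26 FPKM in TRAMP control prostate (SD, n = 4) and 83.0 ± 1.12 FPKM in wild type prostate (SD, n = 3), with the largest part of the difference from Ezh2.

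**Figure D2:**
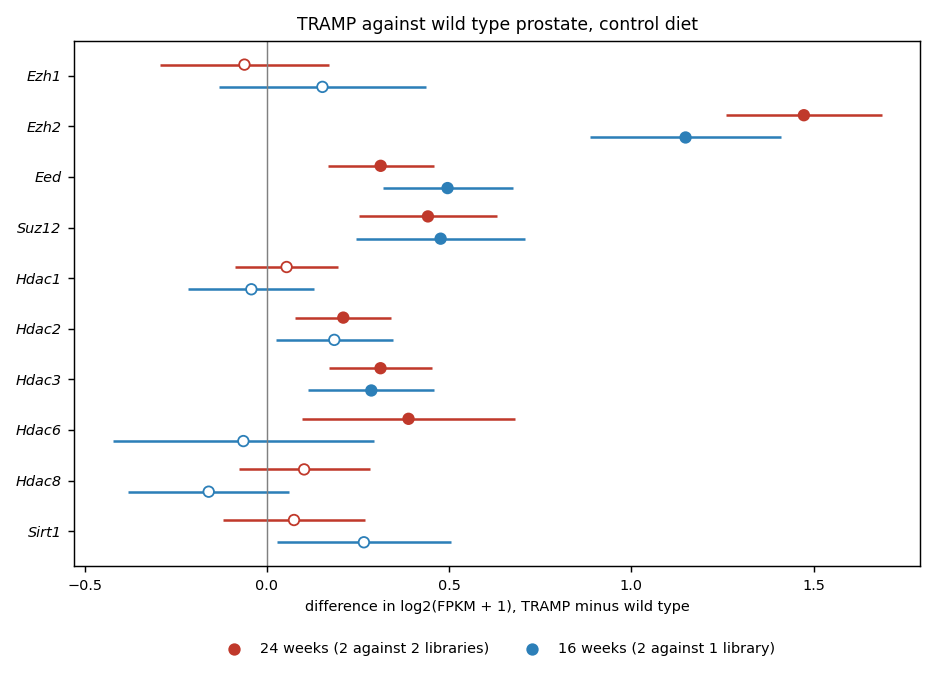
Difference in log2(FPKM + 1) between TRAMP and wild type prostate on control diet, with 95% intervals, at 24 weeks (upper point of each pair) and 16 weeks (lower point); filled points passed the adjusted p threshold and open points did not. Ezh2 stands at 1.47 and 1.15, and the other 9 genes lie between -0.16 and 0.50.

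Prostate of TRAMP mice also differed from wild type in cell cycle genes and cell type markers, and in bulk tissue fewer cells of a type and less RNA per cell cannot be told apart. DNA replication genes moved with Ezh2: 20 of 20 rose at 24 weeks, with a median of 2.36, and 19 of 20 at 16 weeks, with a median of 2.26. All 20 mitosis genes rose at both ages, with medians of 2.23 and 1.56. Mcm3, a subunit of the replicative helicase, had 46.2 and 49.9 FPKM in TRAMP prostate of 24 weeks, against 2.23 and 1.87 FPKM in wild type prostate. Mki67, which encodes the proliferation antigen Ki-67, had 15.7 and 12.8 FPKM in TRAMP prostate and 1.23 and 1.19 FPKM in wild type prostate of that age. Further replication genes with large rises at 24 weeks were Mcm5 (3.79), Mcm6 (3.50) and Cdt1 (3.39), and mitosis genes Ube2c (3.27), Ccnb2 (3.20), Cdk1 (3.10) and Cdc20 (3.09). Cdkn2a, a cell cycle inhibitor known to be high where RB is inactive, had 135.9 and 119.7 FPKM in TRAMP prostate of 24 weeks, against 0.404 and 0.555 FPKM in wild type prostate. Pbsn, the probasin gene whose rat promoter drives the transgene, had 15.5 and 74.8 FPKM in TRAMP prostate of 24 weeks, against 664 and 1620 FPKM in wild type prostate. In the wild type library of 16 weeks the mitosis genes had a geometric mean of 3.08 FPKM, above the 1.20 and 1.13 FPKM of wild type prostate at 24 weeks, and Ezh2 was also highest there among wild type libraries.

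**Figure D3:**
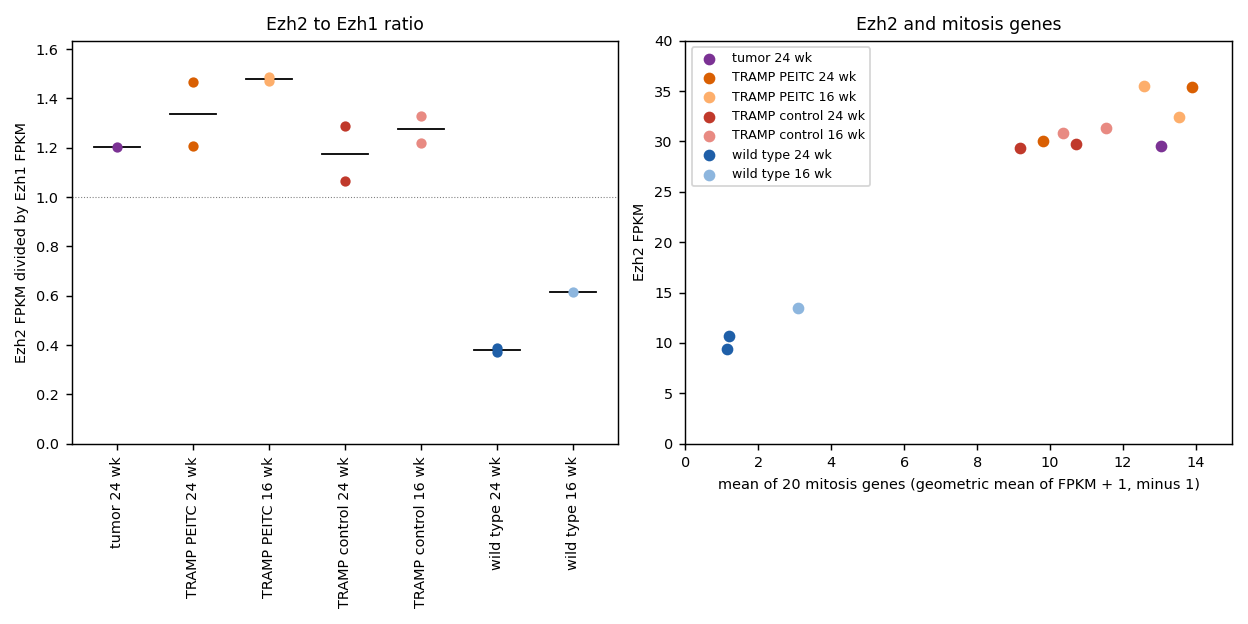
Left, Ezh2 FPKM divided by Ezh1 FPKM in each library, with a line at each group mean and a dotted line at 1; right, Ezh2 FPKM against the mean level of 20 mitosis genes, 1 point per library. All TRAMP libraries, the tumor included, lie above a ratio of 1 and all wild type libraries below it, and the libraries form a wild type and a TRAMP cluster in the right panel.

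Markers of other cells changed as well at 24 weeks. In TRAMP prostate 5 of 8 macrophage markers rose (summed level 137 to 277 FPKM, against 52.7 to 57.5 FPKM in wild type), as did 4 of 6 T and NK cell markers tested and 3 of 3 B and plasma cell markers tested. Lower were 6 of 6 prostate secretory markers, 5 of 8 luminal markers, 5 of 6 basal markers (39.1 to 39.5 FPKM against 114.2 to 142.7 FPKM) and 6 of 8 smooth muscle markers (331 to 392.3 FPKM against 875 to 921 FPKM). Also lower were 3 of 7 seminal vesicle markers, and none of 6 fibroblast, 6 endothelial, 4 neuroendocrine or 4 adipocyte markers tested was called. At 16 weeks 8 of 8 smooth muscle, 5 of 6 basal, 5 of 6 prostate secretory and 3 of 8 luminal markers were lower in TRAMP prostate. Lower there too were 7 of 7 seminal vesicle, 1 of 6 endothelial and 1 of 4 neuroendocrine markers. Higher were 3 of 6 T and NK cell markers. None of 8 macrophage, 3 B and plasma cell, 6 fibroblast or 4 adipocyte markers was called. The part of these marker shifts, or of the replication genes, in the differences of the chromatin genes was not tested.

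Of the 4 class I histone deacetylase genes, Hdac3 and Hdac2 rose at 24 weeks and Hdac1 and Hdac8 did not pass. Hdac3, on chromosome 18, was the most abundant of the 10 genes and had 58.5 and 57.1 FPKM in TRAMP prostate of 24 weeks and 56.5 and 51.0 FPKM in TRAMP prostate of 16 weeks, against 46.6 and 46.2 FPKM in wild type prostate of 24 weeks and 43.8 FPKM in wild type prostate of 16 weeks. The groups were separate at both ages. Its difference was 0.31 at 24 weeks (SE 0.06, adjusted p = 0.00452) and 0.29 at 16 weeks (SE 0.07, adjusted p = 0.0211). The call at 24 weeks held in all 13 alternatives. At 16 weeks it was lost without TRAMP replicate 0 (0.21, adjusted p = 0.0652), under GC correction (adjusted p = 0.0663) and when only the groups compared were fitted (adjusted p = 0.147).

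Hdac2 (chromosome 10, 36974544 to 37001889, plus strand) had 44.0 and 41.4 FPKM in TRAMP prostate of 24 weeks and 43.3 and 46.1 FPKM in TRAMP prostate of 16 weeks, against 36.4 and 37.1 FPKM in wild type prostate of 24 weeks and 39.2 FPKM in wild type prostate of 16 weeks. TRAMP values were above wild type values in each library. The difference was 0.21 at 24 weeks (SE 0.06, adjusted p = 0.0188) and 0.18 at 16 weeks, which did not pass (adjusted p = 0.0740). The call at 24 weeks was lost without TRAMP replicate 0 (0.17, adjusted p = 0.0919), without wild type replicate 0 (adjusted p = 0.0699) or 1 (adjusted p = 0.0523), under GC correction (0.14, adjusted p = 0.0768) and when only the groups compared were fitted (adjusted p = 0.0753).

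Hdac1 (chromosome 4, 129516104 to 129542713, minus strand), the close paralog of Hdac2, had 32.6 and 32.1 FPKM in TRAMP prostate of 24 weeks and 34.3 and 31.8 FPKM in TRAMP prostate of 16 weeks, against 31.9 and 30.4 FPKM in wild type prostate of 24 weeks and 34.1 FPKM in wild type prostate of 16 weeks. The ranges overlapped, and the difference of 0.05 at 24 weeks had an interval of -0.09 to 0.20 (adjusted p = 0.498). Its transcript is 99.4% identical over 1444 bases to the processed pseudogene Gm10093, which is not among the symbols of the files, so the handling of reads shared with it is uncertain. Hdac8 (X chromosome, 102284639 to 102505359, minus strand) had 9.34 and 8.62 FPKM in TRAMP prostate of 24 weeks and 8.63 and 7.97 FPKM in wild type prostate of that age, with a difference of 0.10 (interval -0.08 to 0.28, adjusted p = 0.317). At 16 weeks it had 8.09 and 8.17 FPKM in TRAMP prostate and 9.197 FPKM in wild type prostate, a difference of the other sign (-0.16, interval -0.38 to 0.06, adjusted p = 0.230). Neither passed. The 4 class I genes summed to 140.8 ± 3.22 FPKM in TRAMP control prostate (SD, n = 4) and 123.8 ± 2.33 FPKM in wild type prostate (SD, n = 3).

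Hdac6 (X chromosome, 7930120 to 7947889, minus strand), the tubulin deacetylase, had 12.6 and 9.29 FPKM in TRAMP prostate of 24 weeks and 8.66 and 9.63 FPKM in TRAMP prostate of 16 weeks, against 8.12 and 7.96 FPKM in wild type prostate of 24 weeks and 9.59 FPKM in wild type prostate of 16 weeks. It varied most among replicates of the 10 genes, with a within-group SD of 0.14 on the log2 scale against a median of 0.10 over all genes. The rise at 24 weeks (0.39, SE 0.13, adjusted p = 0.0377) rested on TRAMP replicate 0: without it the difference was 0.19 (adjusted p = 0.179), and without TRAMP replicate 2 it was 0.59. It was also lost without wild type replicate 0 (adjusted p = 0.0995) or 1 (adjusted p = 0.128), and in 4 other alternatives it reached an adjusted p between 0.0685 and 0.118. At 16 weeks the difference was -0.06 (interval -0.42 to 0.29).

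Sirt1 (chromosome 10, 63319005 to 63381704, minus strand) was the least abundant of the 10 genes, with 7.57 and 6.91 FPKM in TRAMP prostate of 24 weeks and 7.94 and 7.85 FPKM in TRAMP prostate of 16 weeks, against 6.74 and 6.89 FPKM in wild type prostate of 24 weeks and 6.398 FPKM in wild type prostate of 16 weeks. The groups lay close together at 24 weeks and further apart at 16 weeks. Neither difference passed, 0.07 at 24 weeks (interval -0.12 to 0.27, adjusted p = 0.50) and 0.27 at 16 weeks (interval 0.03 to 0.50, adjusted p = 0.0813). When the 50 most abundant genes were left out of the scaling, Sirt1 was called at 16 weeks (0.37, adjusted p = 0.0280). Under that scaling the median of all genes was 0.12, against 0.02 as reported.

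At 16 weeks 4 of the 10 genes rose in TRAMP prostate (Ezh2, Eed, Suz12 and Hdac3) and none fell, beside 18.1% of all genes called higher, 15.4% lower and 33.6% in either direction (54.1% of calls higher, 70.3% when the scaling left out the 50 most abundant genes and 45.2% with no filter on low values). With the wild type libraries of 24 weeks as the control, 5 of the 10 were called higher, beside 2851 of all 13375 genes called higher, against 2427 with the wild type library of 16 weeks. The 5 were Ezh2 (1.54), Suz12 (0.58), Eed (0.37), Hdac2 (0.27) and Hdac3 (0.21). Not called were Sirt1 (0.19), Hdac6 (0.16), Hdac1 (0.08), Hdac8 (-0.03) and Ezh1 (-0.11), of which Hdac6, Hdac1 and Ezh1 had the other sign against the wild type library of 16 weeks. The change of the TRAMP effect from 16 to 24 weeks was tested directly, and none of the 10 genes passed, beside 0.366% of all genes (0.329% higher and 0.0374% lower). None had an unadjusted p under 0.05 either, against 15.8% of all genes. The largest estimates were Hdac6 at 0.45 (interval -0.01 to 0.92, adjusted p = 0.325) and Ezh2 at 0.32 (interval -0.01 to 0.66, adjusted p = 0.330). In all 8 TRAMP prostate libraries, whatever the diet or age, Ezh2, Eed, Suz12, Hdac2, Hdac3 and Sirt1 were above all 3 wild type libraries, and 23% of all genes were so placed.

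The order of the levels differed between TRAMP and wild type prostate for the PRC2 genes, with Ezh2 and Suz12 placed higher and Ezh1 lower in TRAMP prostate. In the 8 TRAMP prostate libraries the medians were 54.5 FPKM for Hdac3 and 44.0 FPKM for Hdac2, each clear of the next gene. Suz12 (33.2), Hdac1 (32.3), Ezh2 (31.1) and Eed (30.3 FPKM) followed with ranges that overlap between neighbours, then Ezh1 at 24.1 FPKM, and Hdac6 (9.59), Hdac8 (8.15) and Sirt1 (7.57 FPKM) with overlapping ranges. In wild type prostate the medians were 46.2 FPKM for Hdac3, 37.1 for Hdac2 and 31.9 for Hdac1, each apart from the next. Ezh1, Eed and Suz12 (25.2, 24.4 and 24.1 FPKM) overlapped, and Ezh2 stood below them at 10.7 FPKM, above Hdac8 (8.63), Hdac6 (8.12) and Sirt1 (6.74 FPKM).

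The genes that work with these enzymes moved in both directions. Of 76 tested genes in 7 lists of PRC2 and PRC1 subunits, demethylases, further deacetylases and sirtuins, corepressor subunits and acetyltransferases, 16 (21.1%) rose and 14 (18.4%) fell at 24 weeks, beside 23% and 22% of all genes. Of the same 76 genes, 17 (22.4%) rose and 8 (10.5%) fell at 16 weeks, beside 18.1% and 15.4% of all genes. Among 7 PRC2 accessory subunits at 24 weeks, Mtf2 (0.43) and Rbbp4 (0.32) rose, and Phf19 (-1.79) and Phf1 (-0.40) fell. Phf19, Phf1 and Mtf2 are the 3 Polycomb-like proteins that guide PRC2 to chromatin, and they did not move together. Phf19 had 7.29 and 8.39 FPKM in TRAMP prostate of 24 weeks, against 21.7 and 40.2 FPKM in wild type prostate of that age (adjusted p = 0.00088). In the 8 TRAMP prostate libraries Phf19 ranged from 7.29 to 11.1 FPKM, below all 3 wild type libraries, and at 16 weeks its difference was -1.90. There Phf1 (-0.72) also fell and Mtf2 (0.71) and Rbbp4 (0.47) rose. Phf1 had 29.8 and 27.9 FPKM in TRAMP prostate and 39.7 and 36.8 FPKM in wild type prostate at 24 weeks.

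Of 18 PRC1 subunits, the complex that binds the H3 lysine 27 mark or ubiquitinates histone H2A, 4 rose and 5 fell at 24 weeks, with a median of 0.08, and 6 rose and 2 fell when the scaling left out the 50 most abundant genes. The largest were Pcgf6 (0.73), which defines a variant complex, the chromobox genes Cbx2 (0.72) and Cbx6 (0.50), and Yaf2 (-0.48), whose call was lost without either TRAMP replicate and without wild type replicate 1. Cbx2 had 6.48 and 6.38 FPKM in TRAMP prostate, against 3.44 and 3.61 FPKM in wild type prostate. At 16 weeks 4 rose and 1 fell, led by Cbx2 (0.95), Pcgf6 (0.82) and Pcgf5 (0.79). None of the 3 H3 lysine 27 demethylase genes was called at 24 weeks, and Kdm6a (0.51) rose at 16 weeks.

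Among 6 further histone deacetylases, the class IIa genes Hdac7 (0.59) and Hdac5 (0.41) rose at 24 weeks, and Hdac9 (-0.78), of the same class, and Hdac11 (-0.28) fell. Hdac9 had 15.8 and 12.2 FPKM in TRAMP prostate, against 21.3 and 28.5 FPKM in wild type prostate, and its call was lost without TRAMP replicate 2 or wild type replicate 1. Of 6 further sirtuins, Sirt6 (0.48) rose and Sirt2 (-0.38), like Hdac6 a tubulin deacetylase, fell. At 16 weeks none of the 6 deacetylases was called, and Sirt2 (-0.38) and the mitochondrial Sirt5 (-0.32) were lower. The Sirt5 call was kept in 8 of 12 alternatives and was lost without either TRAMP replicate.

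Of 26 subunits of the corepressor complexes that carry Hdac1, Hdac2 and Hdac3, 5 rose and 4 fell at 24 weeks. The split was 8 and 3 when the scaling left out the 50 most abundant genes, and 2 and 5 under GC correction. The largest were Sap30 of the Sin3 complex (0.85), the NuRD remodeller Chd3 (-0.59), Gps2 of the NCoR complex (0.55) and Sap18 (-0.42). At 16 weeks 5 rose and 3 fell, led by Chd3 (-0.82), Sap30 (0.75), Mier1 (0.50) and Gps2 (0.48). Of 10 acetyltransferases, which oppose deacetylases, Hat1 (1.41) and Kat2a (0.23) rose at 24 weeks. The Kat2a call there was kept in 9 of 13 alternatives. Hat1, which acetylates newly made histone H4, had 44.2 and 43.5 FPKM in TRAMP prostate, against 15.5 and 16.2 FPKM in wild type prostate (adjusted p = 2.8e-06), a change of nearly the size of that of Ezh2. At 16 weeks Hat1 differed by 1.38. The calls of Kat2b, Kat7 and Kat2a at 16 weeks were each lost without either TRAMP replicate.

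The differences of these partner genes at 16 weeks rest on the same wild type library, and against the wild type libraries of 24 weeks the calls of Kat2b and Kat7 were lost. The other partner genes named at 16 weeks passed there too: Phf19 (-1.57), Phf1 (-0.76), Mtf2 (0.56), Rbbp4 (0.44), Cbx2 (0.79), Pcgf6 (0.81), Pcgf5 (0.47) and Kdm6a (0.36). So did Sap30 (0.96), Chd3 (-0.75), Gps2 (0.40), Mier1 (0.37), Sirt2 (-0.34), Sirt5 (-0.34), Hat1 (1.51) and Kat2a (0.20).

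**Figure D4:**
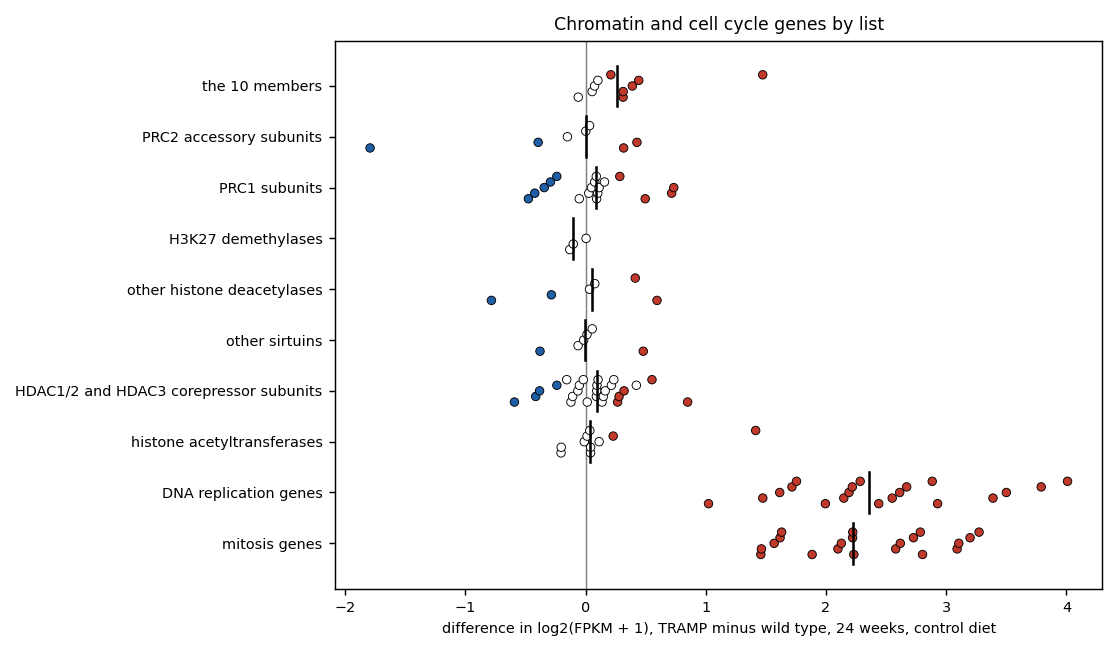
Difference in log2(FPKM + 1) between TRAMP and wild type prostate at 24 weeks for the 10 genes (top) and the genes of 9 further lists, 1 point per gene, with a line at each list's median; red points were called higher, blue points lower and white points neither. Points of the chromatin lists lie on both sides of 0, whereas all 40 replication and mitosis genes lie to the right of it.

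The tumor library was set against TRAMP prostate of 24 weeks on control diet. It is 1 library from an unknown lobe, so its spread was taken from the other groups. Its relative depth was 0.698, against 0.949 and 1 in TRAMP prostate of 24 weeks, and the part of depth was not tested. Of the 10 genes Hdac3 alone was called, beside 5.59% of all genes called higher, 6.17% lower and 11.8% in either direction. Hdac3 had 75.0 FPKM in the tumor, against 58.5 and 57.1 FPKM in TRAMP prostate, the highest value of any of the 10 genes in the 12 libraries (0.37, SE 0.07, adjusted p = 0.0205). The call was lost without TRAMP replicate 2 (0.35, adjusted p = 0.0552) and when only the groups compared were fitted (adjusted p = 0.178). Hdac3 made up 46.5% of the class I sum in the tumor, against 40.5% and 41.0% in TRAMP prostate. Ezh2 was level with TRAMP prostate, at 29.6 FPKM in the tumor and 29.8 and 29.4 FPKM in TRAMP prostate (-0.001, interval -0.26 to 0.26). Hdac1 had 36.2 FPKM in the tumor, against 32.6 and 32.1 FPKM in TRAMP prostate, and did not pass (0.16, adjusted p = 0.210).

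Among the partner genes, Hdac9 was lower in the tumor, at 4.88 FPKM against 15.8 and 12.2 FPKM in TRAMP prostate (-1.34, adjusted p = 0.0166), as were Hdac10 (-0.42), Hdac11 (-0.36) and the PRC2 subunit Jarid2 (-0.66). The PRC1 subunit Phc2 (0.38) was higher. All 5 calls were lost when only the groups compared were fitted. Those of Hdac9 and Hdac10 were also lost without TRAMP replicate 0, those of Hdac11 and Phc2 without TRAMP replicate 2, and that of Jarid2 without either. Endothelial markers summed to 23.8 FPKM in the tumor, against 8.04 to 11.1 FPKM in TRAMP prostate, with 2 of 6 called higher, and prostate secretory markers to 2237 FPKM, against 3314 to 4675 FPKM, with 3 of 6 called lower. The mitosis gene Ube2c had 44.4 FPKM in the tumor, against 23.9 and 21.9 FPKM in TRAMP prostate (0.93, adjusted p = 0.0494), a call kept in 3 of 11 alternatives. The part of these genes and markers in the other differences was not tested.

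Age by itself, at 24 against 16 weeks in TRAMP prostate on control diet, changed none of the 10 genes in the test, beside 0.00748% of all genes (1 gene). None had an unadjusted p under 0.05, against 16.9% of all genes. The differences ran from -0.13 for Suz12 to 0.22 for Hdac6, where replicate 0 of 24 weeks stood apart.

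The diet comparison asked whether PEITC altered these genes in TRAMP prostate. None of the 10 genes passed at 24 weeks, at 16 weeks, or in the mean over both ages, beside 0% of all genes at 24 weeks, 0.00748% at 16 weeks and 0% in the mean. At 24 weeks none of the 10 had an unadjusted p under 0.05, against 9.47% of all genes. At 16 weeks none had either, against 10.1% of all genes. In the mean over both ages 1 of the 10 had, against 6.65% of all genes. That gene was Hdac3, at -0.11 (interval -0.20 to -0.01, adjusted p = 0.735).

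Hdac3 had 55.7 and 53.2 FPKM on PEITC at 24 weeks, against 58.5 and 57.1 FPKM on control diet, and 48.1 and 50.2 FPKM on PEITC at 16 weeks, against 56.5 and 51.0 FPKM on control diet. The Hdac3 estimates were -0.09 at 24 weeks and -0.13 at 16 weeks, and neither difference passed (adjusted p = 0.680 and 0.514). Ezh2 had 30.03 and 35.4 FPKM on PEITC at 24 weeks, against 29.8 and 29.4 FPKM on control diet, and 35.5 and 32.4 FPKM on PEITC at 16 weeks, against 30.8 and 31.3 FPKM on control diet. The Ezh2 estimates were 0.14 at 24 weeks and 0.12 at 16 weeks, and neither passed (adjusted p = 0.663 and 0.670). The library with 35.4 FPKM is the one with the highest neuroendocrine and adipocyte marker sums. Its mitosis genes had a geometric mean of 13.9 FPKM, the highest of the 12 libraries. The part of these markers and genes was not tested. Without that library the Ezh2 estimate at 24 weeks was 0.02. Without the PEITC library of 16 weeks rich in smooth muscle markers, the estimate at 16 weeks was 0.19. With both ages pooled, the Ezh2 to Ezh1 ratio averaged 1.41 ± 0.134 on PEITC (SD, n = 4, range 1.21 to 1.49). On control diet it averaged 1.23 ± 0.115 (SD, n = 4, range 1.07 to 1.33), and the pooled ranges overlapped. At 24 weeks the ratios were 1.21 and 1.47 on PEITC, against 1.07 and 1.29 on control diet, and overlapped. At 16 weeks they were 1.47 and 1.49 on PEITC, against 1.22 and 1.33 on control diet, and did not overlap. The ratio was not tested.

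**Figure D5:**
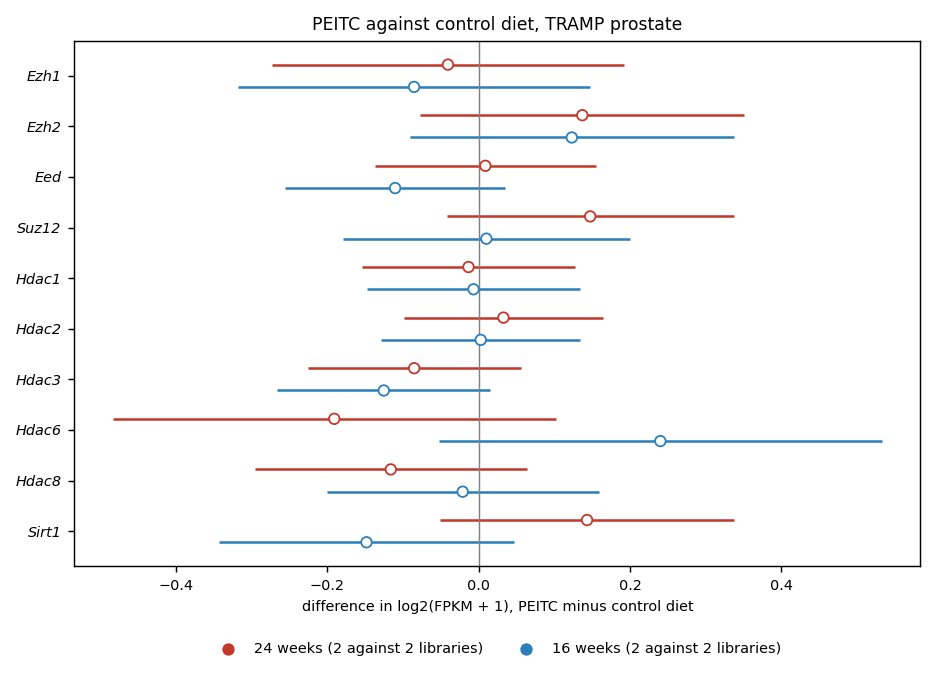
Difference in log2(FPKM + 1) between PEITC and control diet in TRAMP prostate, with 95% intervals, at 24 weeks (upper point of each pair) and 16 weeks (lower point); all points are open because none passed the adjusted p threshold. Estimates run from -0.19 to 0.24, and each of the 20 intervals includes 0.

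The intervals give what PEITC differences these data leave possible. In the mean over both ages the 10 intervals lay between -0.23 and 0.28 on the log2 scale. At 24 weeks they reached from -0.48 to 0.35, and at 16 weeks from -0.34 to 0.53, the outer bounds belonging to Hdac6 and Sirt1 on the low side and Ezh2 and Hdac6 on the high side. Suz12 differed by 0.15 at 24 weeks and 0.01 at 16 weeks, and Eed by 0.01 and -0.11. Hdac1 and Hdac2 had estimates between -0.01 and 0.03 at both ages. Their mean over both ages was -0.01 for Hdac1 (interval -0.11 to 0.09) and 0.02 for Hdac2 (interval -0.08 to 0.11).

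Hdac6 and Sirt1 had estimates of opposite sign at the 2 ages. Hdac6 had 9.20 and 9.55 FPKM on PEITC at 24 weeks, against 12.6 and 9.29 FPKM on control diet, and 11.4 and 10.6 FPKM on PEITC at 16 weeks, against 8.66 and 9.63 FPKM on control diet. Sirt1 had 7.57 and 8.63 FPKM on PEITC at 24 weeks, against 7.57 and 6.91 FPKM on control diet, and 7.08 and 6.98 FPKM on PEITC at 16 weeks, against 7.94 and 7.85 FPKM on control diet. The age contrast of the diet effect (24 minus 16 weeks) was -0.43 for Hdac6 (adjusted p = 0.371) and 0.29 for Sirt1 (adjusted p = 0.369), the 2 of the 10 with an unadjusted p under 0.05, against 12.9% of all genes. None of the 10 genes passed, beside 0.00748% of all genes, and the Hdac6 contrast includes the 24-week control library that stood apart. No gene of the partner, replication or mitosis lists was called in any diet comparison. Replication genes had a median of 0.19 at 24 weeks and 0.15 at 16 weeks on PEITC.

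The genes closest to each of the 10 in level over the 12 libraries were found by Pearson's r of log2(FPKM + 1). These values are given as a description, because the libraries form a TRAMP and a wild type cluster and differ in depth. Nearest to Ezh2 were the mitotic checkpoint kinase gene Bub1b (r = 0.997), Arhgap11a (0.997) and Rfc4 (0.996), a subunit of the replication clamp loader. Hdac2 was nearest to Mettl14 (0.982), Diap3 and Fancd2, and Hdac3 to Rela (0.982), an NF-kB subunit, Stom and Colgalt1. Eed was nearest to Zcchc11 (0.981), Tbk1 and Ddx24, and Suz12 to Nmd3 (0.980), Pms2 and Map2. The other 5 genes had lower best values: Osgepl1 for Sirt1 (0.913), Tctn2 for Hdac6 (0.909), Pkm for Hdac1 (0.890), Pex6 for Ezh1 (0.886) and Cyp46a1 for Hdac8 (0.869).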

How the data were processed

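RNA sequencing values of 12 mouse prostate libraries were used as the authors deposited them: FPKM values for 24421 genes per library, on the mm10 genome build per the labels. The submitters' processing notes name HISAT2, Picard, featureCounts and DESeq2 with no version or role. The annotation, strand setting and library totals behind the FPKM values are not stated in the sources used here, so depth in reads is unknown, no counting interval can be given, and values were read as a relative scale. They sum to 395678 to 467650 per library. An FPKM is not a count, so no count test was used.

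Values were taken as log2(FPKM + 1), which understates changes of low genes. Genes averaging 0.5 FPKM or more entered the test (13375 genes), which used limma 3.58.1 (R 4.3.3) with the following settings: a mean per group over all 7 groups, 5 residual degrees of freedom, an intensity trend, two-sided p-values and Benjamini-Hochberg adjustment over all genes tested. An adjusted p under 0.05 was called. Groups with 1 library took their spread from the others. The procedure was also run on simulated data with independent noise and few changed genes. That setting does not give its power or error for the differences reported here. Gene positions came from GENCODE M21 on GRCm38, the assembly of mm10, where 95.7% of symbols matched, and promoters from RefSeq (GRCm38.p6), where 8 of the 10 genes matched. Figures were drawn with matplotlib 3.10.9 in Python 3.11.15.

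The 10 genes, the lists and the comparisons were chosen with earlier results of these data known. Named besides the 10 were up to 4 called genes per list with the largest differences in each comparison, the 3 genes with the highest Pearson r to each of the 10, and Mki67, Mcm3, Cdkn2a and Pbsn for context. Some genes that this rule names are not reported here. The alternatives changed the pseudocount, filter, scaling, GC correction, trend, groups fitted, single libraries, the wild type control and the replicate block.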

Additional observations from a re-analysis of the deposited data

How the results depend on the processing

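Of 1250 recomputed values for the 10 genes, 1229 stayed on the same side of the threshold, 18 calls were lost, 3 were gained and none reversed. Most of these values belong to results that were not called. The 11 called values had 137 alternatives, and the 18 losses fell among these. A further 81 values changed sign without a call in either analysis. At 24 weeks, TRAMP against wild type kept 4 to 6 genes called when a library was left out (4200 to 4950 of all genes). At 16 weeks it kept 3 to 4, and with only the groups compared 2 (2198 of all genes). The tumor comparison called 1 of the 10, or 0 without TRAMP replicate 2 of 24 weeks and 0 with only the groups compared (0 of all genes). In the diet, age and difference comparisons none of the 10 was called under any alternative run.

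Counts over all genes were unstable where few were called. With no filter they were 297 for the difference of the TRAMP effect (27 with a pseudocount of 0.1), 9 for PEITC at 24 weeks, 6 at 16 weeks (2 with a pseudocount of 0.1), 9 in the mean of both ages, 12 for the PEITC difference and 4 for age. With only the groups compared they were 1 for PEITC at 24 weeks and 0 at 16 weeks, for the PEITC difference and for age, and with no intensity trend 0 for PEITC at 16 weeks and for the PEITC difference. Leaving out a library gave 33 to 82 for the TRAMP difference, 0 to 160 for PEITC at 24 weeks, 0 at 16 weeks, 0 to 16 in the mean, 0 to 124 for the PEITC difference and 1 to 260 for age. The highest of these, apart from 16, came without TRAMP replicate 2 of 24 weeks. The cause was not tested.

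When the scaling left out the 50 most abundant genes, the median difference of all genes moved to 0.09 at 24 weeks and 0.12 at 16 weeks, and Hdac2 (0.30) and Sirt1 (0.37) were called at 16 weeks. With no filter, 57.1% of calls in the tumor were higher (47.6% as reported). The replicate block for PEITC at 16 weeks called 0 of all genes and none of the 10; samples there share only a number (correlation of deviations -0.3104). Reads per gene are unknown, so the part of depth in the spread was not tested.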
